A study of Mus musculus with 9 samples.

Results

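The cytosolic ribosomal protein genes are the genes for the protein parts of the ribosome that translates nuclear mRNA. They were taken here by symbol from a table of ribosome-bound mRNA in 3 mouse fat depots: names that start with Rpl or Rps, followed by a digit and then only digits or the letters a, x or l, together with Rplp0, Rplp1, Rplp2 and Rpsa. Rps6 kinase genes and names that end in -ps were left out. The rule found 84 of the 22527 symbols in the table, 52 for the large (60S) subunit and 32 for the small (40S) subunit, each on 1 line.

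The 3 groups were brown fat of C57BL/6 mice (BAT), their white fat from under the skin of the groin (inguinal, iWAT) and their white fat beside the epididymis (eWAT), all at the age of 8 weeks, with 3 libraries each. All 9 libraries came from frozen tissue in which ribosomes were pulled down with an antibody against GFP, followed by removal of ribosomal RNA and single-end sequencing. The labels give the genotype as wild type in all groups. The name of the deposited table refers to adiponectin, an adipocyte gene, and to TRAP, a ribosome pull-down method. The labels name neither the cells that carry a GFP tag, nor the tagged protein, nor whether replicates are separate animals, so p-values measure the spread between these libraries only. For the third BAT library the tissue field reads inguinal white while its title and source read brown. It is kept as BAT 3. Values are FPKM, fragments per kilobase of transcript relative to the library's mapped reads, so levels of different genes are per length. They can be set side by side only where near-identical copies do not hold part of a gene's FPKM.

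A ribosome holds 1 copy of nearly every ribosomal protein, with the P1 and P2 proteins of the stalk as the known exception. The mRNAs of these proteins are among the most abundant in most cells, and most start with a run of pyrimidines, the 5' terminal oligopyrimidine (TOP) motif, through which mTORC1 and LARP1 set how much of them is on ribosomes. Several ribosomal proteins have a paralog that is made in few tissues, such as the muscle protein encoded by Rpl3l, and most of the genes have left intronless copies elsewhere in the genome.

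The table has no read totals. Depth estimated from the steps of low FPKM values was 11.1 to 21.2 M reads in BAT, 2.91 to 4.65 M in iWAT, and 16.1, 4.46 and 4.57 M in eWAT 1 to 3. Every BAT library was thus deeper than every iWAT library, and for these depots depth and depot cannot be told apart. The 8 markers of brown adipocytes summed to 25174 to 28122 FPKM in the BAT libraries, BAT 3 included, against 234 to 533 in iWAT and 61.4 to 83.9 in eWAT. All 10 general adipocyte markers passed the filter on low values, whereas 8 of 9 lymphocyte markers stayed under 1 FPKM in all libraries. Other tissues left a measurable signal: 12 skeletal muscle markers summed to 61.1 to 151 FPKM in BAT, 1843 to 2532 in iWAT, and 228, 1318 and 1112 in eWAT 1 to 3. The 8 epithelial and skin markers summed to 28.8 to 61.5 in BAT, 201 to 562 in iWAT, and 83.8, 276 and 243 in eWAT 1 to 3, with Krt18, Epcam and Cdh1 under 1 FPKM throughout. The 8 stromal progenitor markers summed to 7.38 to 18.7 in BAT, 104 to 376 in iWAT, and 89.96, 52.1 and 70.8 in eWAT 1 to 3, with Pdgfra, Pi16 and Dpp4 under 1 FPKM throughout. All 4 of these markers that were tested were called lower in BAT than in iWAT (limma). In RNA pulled down with ribosomes from frozen tissue, fewer cells of a type and less RNA per cell cannot be told apart. The labels do not name the tagged cells, so RNA that came down from cells without the tag cannot be told from either.

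Near-identical copies decide how far some of the values can be read. In the mm9 genome, 78 of the 83 genes with a gene model had at least 1 further copy of their coding sequence (at least 90% identical over at least 80% of its length), 890 copies in all, 859 of them without introns, up to 84 for Rpl21. For 16 genes the table lists 18 such copies under names of their own. The sequences of 2 of these pairs are shown because the FPKM of the gene and of its copy traded places between libraries. Rps27, a zinc-binding protein of the 40S subunit, lies on chr3:90016593-90017573 (mm9, minus strand, 4 exons), and its 255-base coding sequence is identical to that of the intronless Gm9846 at chr9:114891571-114891825 (mm9, minus strand). Rpl34, a 60S protein, lies on chr3:130429749-130433316 (mm9, minus strand, 5 exons) and differs from the intronless Rpl34-ps1 at chr6:71074604-71074957 (mm9, plus strand) by 2 of 354 bases, T132C and C318G, counted from the A of the start codon with the base of Rpl34 first. The stretch of this pair from base 102 to base 348 is shown, with the differing bases in capitals.
Rps27 and Gm9846: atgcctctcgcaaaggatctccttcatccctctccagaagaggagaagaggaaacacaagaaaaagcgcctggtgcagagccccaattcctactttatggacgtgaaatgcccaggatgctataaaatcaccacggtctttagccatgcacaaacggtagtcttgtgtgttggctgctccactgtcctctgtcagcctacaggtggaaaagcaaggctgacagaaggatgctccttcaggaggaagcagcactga
Rpl34: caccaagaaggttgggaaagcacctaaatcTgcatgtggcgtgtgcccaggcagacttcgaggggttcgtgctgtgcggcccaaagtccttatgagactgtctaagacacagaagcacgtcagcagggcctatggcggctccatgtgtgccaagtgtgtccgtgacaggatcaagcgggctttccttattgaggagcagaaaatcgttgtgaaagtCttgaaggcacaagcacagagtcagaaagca
Rpl34-ps1: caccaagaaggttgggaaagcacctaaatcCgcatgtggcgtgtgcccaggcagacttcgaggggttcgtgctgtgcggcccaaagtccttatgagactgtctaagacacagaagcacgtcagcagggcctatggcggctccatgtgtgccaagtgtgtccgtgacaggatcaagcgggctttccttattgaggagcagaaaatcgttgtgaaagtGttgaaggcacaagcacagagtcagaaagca

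Rps27 was listed at 298, 772 and 1021 FPKM in BAT 1 to 3, at 47.1, 5524 and 651 in iWAT 1 to 3, and at 1325, 2904 and 160 in eWAT 1 to 3. Gm9846 was listed at 1025, 57.6 and 85.2 in BAT, 2682, 9.09 and 3800 in iWAT, and 40.8, 375 and 2940 in eWAT. Replicates of 1 depot thus differed more than depots did, with a 117-fold range for Rps27, and in BAT 1, iWAT 1, iWAT 3 and eWAT 3 the copy held more than the gene. Summed, the pair stood at 1322, 829 and 1106 FPKM in BAT, 2729, 5534 and 4451 in iWAT, and 1366, 3279 and 3099 in eWAT. The range of the sum was 6.67-fold, and the 3 BAT libraries all lay below the other 6. On the log2(FPKM + 1) scale, where the change of low genes is understated, Rps27 alone differed between BAT and iWAT by 0.15 ± 1.5 (SE, limma adjusted p = 0.939), and the sum by -1.93 ± 0.39 (adjusted p = 0.00228). The call thus depends on whether the copy is added, and reads of identical sequences cannot be told apart.

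Rpl34 was listed at 11.01, 15.03 and 17.62 FPKM in BAT, 730, 1762 and 1276 in iWAT, and 16.4, 915 and 388 in eWAT 1 to 3. Rpl34-ps1 held 602, 454 and 652 in BAT, 372, 119 and 323 in iWAT, and 752, 305 and 936 in eWAT. The sum of both was 613, 469 and 670 in BAT, 1102, 1880 and 1599 in iWAT, and 768, 1220 and 1324 in eWAT. Rpl34 alone was lower in BAT than in iWAT by a log2 difference of -6.27 ± 1.12 (limma, adjusted p = 0.00128), and the sum by -1.37 ± 0.29 (adjusted p = 0.00332). The direction held and its size did not.

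Rpl30, a 60S protein gene, behaved the same way beside Gm12191, from which it differs by 1 base, G96A. It was listed at 42.3, 30.4 and 40.1 FPKM in BAT, 910, 291 and 1050 in iWAT, and 134, 95.3 and 94.6 in eWAT. It was the 1 ribosomal protein gene called between iWAT and eWAT (log2 difference 2.60 ± 0.43, limma, adjusted p = 0.0175). The sum with Gm12191 was 780, 571 and 791 in BAT, 1247, 2480 and 1986 in iWAT, and 787, 1543 and 1427 in eWAT, and was not called between the white depots (0.61 ± 0.34, adjusted p = 0.249). Rpl26 had 94.3% of the summed FPKM under its copies, nearly all of it under Gm15772 and Rps23 (chosen after its values were seen) had 83.4% under Gm15450. In all, 7 of the 16 genes had over 40% of their FPKM under a copy.

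**Figure D1:**
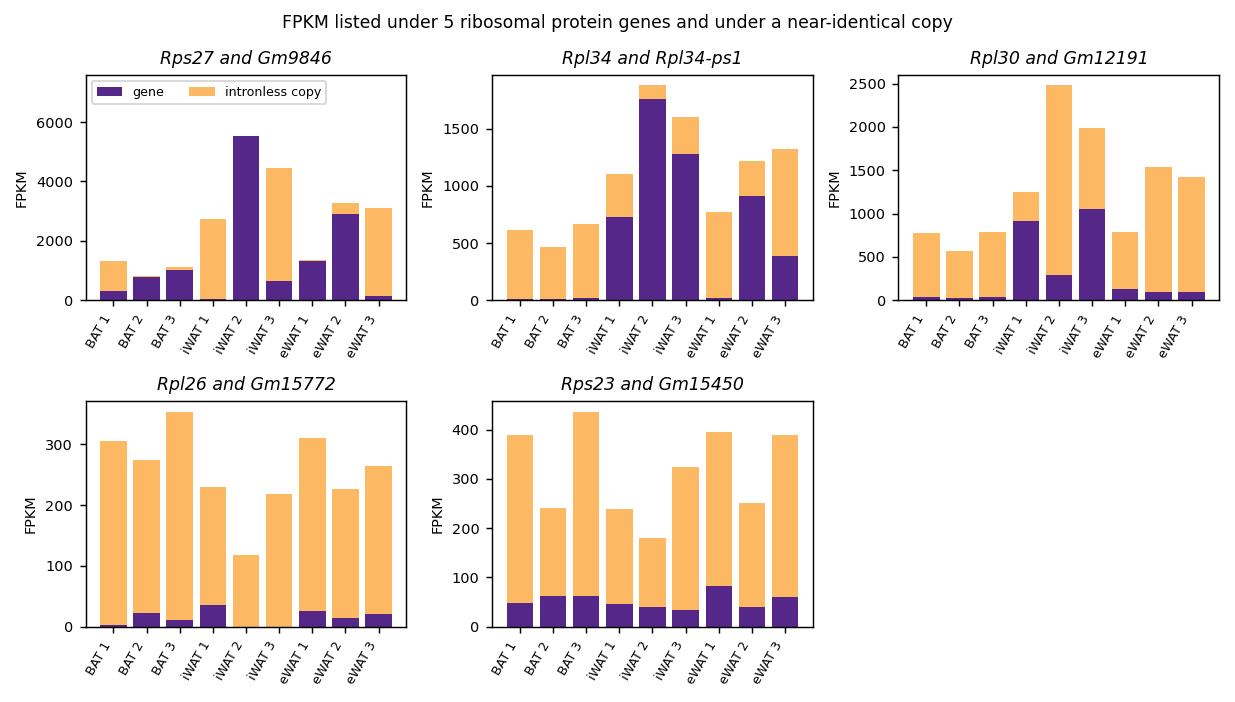
FPKM (linear axis from 0) listed under 5 ribosomal protein genes (purple) and stacked on it under 1 near-identical intronless copy (orange), in each of the 9 libraries. For Rps27 the larger part switches between gene and copy within each depot, while the height of the stack runs from 829 to 5534 FPKM.

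The 84 genes together held 6.32%, 6.04% and 7.38% of the FPKM sum in BAT 1 to 3, 7.73%, 10.7% and 9.65% in iWAT, and 8.70%, 8.82% and 9.0% in eWAT. The shares were 6.58 ± 0.71% in BAT, 9.36 ± 1.51% in iWAT and 8.84 ± 0.15% in eWAT (SD, n = 3), and every BAT library lay below all others. The summed FPKM itself overlapped between depots (40650 to 50386 in BAT, 41893 to 50675 in iWAT, 48085 to 50438 in eWAT), so the lower share in BAT went with a larger sum over all genes there (672506 to 683879, against 473426 to 564830 in the white depots). The median gene of the set had a mean of 443 FPKM, and 76 of the 84 had a mean of at least 100 FPKM. By their own lines, the highest were Rplp2, which encodes the stalk protein P2, Rpl41, which encodes the smallest ribosomal protein, Rpl37a and Rpl11. Summed with Gm9846, Rps27 had means of 1086, 4238 and 2581 FPKM in BAT, iWAT and eWAT. These lay above the means of Rpl37a and Rpl11 in each depot. Among the lowest were Rpl10l, Rpl3l and Rpl26. Summed with its listed copies, Rpl26 stood at 118.5 to 353.8 FPKM, so its low rank holds for its own line only. Rpl10l, an intronless copy of Rpl10 known from the testis, was listed at 0 in 8 of 9 libraries and at 0.876 FPKM in eWAT 3. With it, 2 genes failed the filter of 1 FPKM in 3 libraries, which left 82 tested.

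Between BAT and iWAT the set split. Of 82 genes, 35 were called higher in BAT and 18 lower (limma on log2(FPKM + 1), adjusted p under 0.05 over all genes), and 29 were not called. Among all 10374 genes tested, 34.5% were called higher and 22.9% lower, so the members' 42.7% and 22% lie near the background. The median difference was 0.44 over the members and 0.23 over all genes. The split depended on the scaling: median-ratio scaling gave 24 higher and 20 lower, with the median of all genes at 0.04, and quantile normalization gave 9 higher and 34 lower. Under median-ratio scaling the members' 29.3% higher and 24.4% lower stood beside 29.0% and 28.1% of all genes. Under quantile normalization the members' 11% higher and 41.5% lower stood beside 28.3% and 27.5% of all genes, so under that scaling they did not lie near the background. Leaving out BAT 3 lowered the higher count to 22, 26.8% of the members, beside 27.6% of all genes. Leaving out BAT 2, iWAT 2 or iWAT 3 lowered the lower count to 9, 12 and 11. The lower share of all genes fell as well, from 22.9% to 15.6%, 18.5% and 17.6%. The values of the 2 depots did not overlap for 39 genes higher in BAT and 19 lower (background 38.5% and 27.2%). In the small subunit 17 of 32 were higher and 6 lower, and in the large subunit 18 of 50 and 12.

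**Figure D2:**
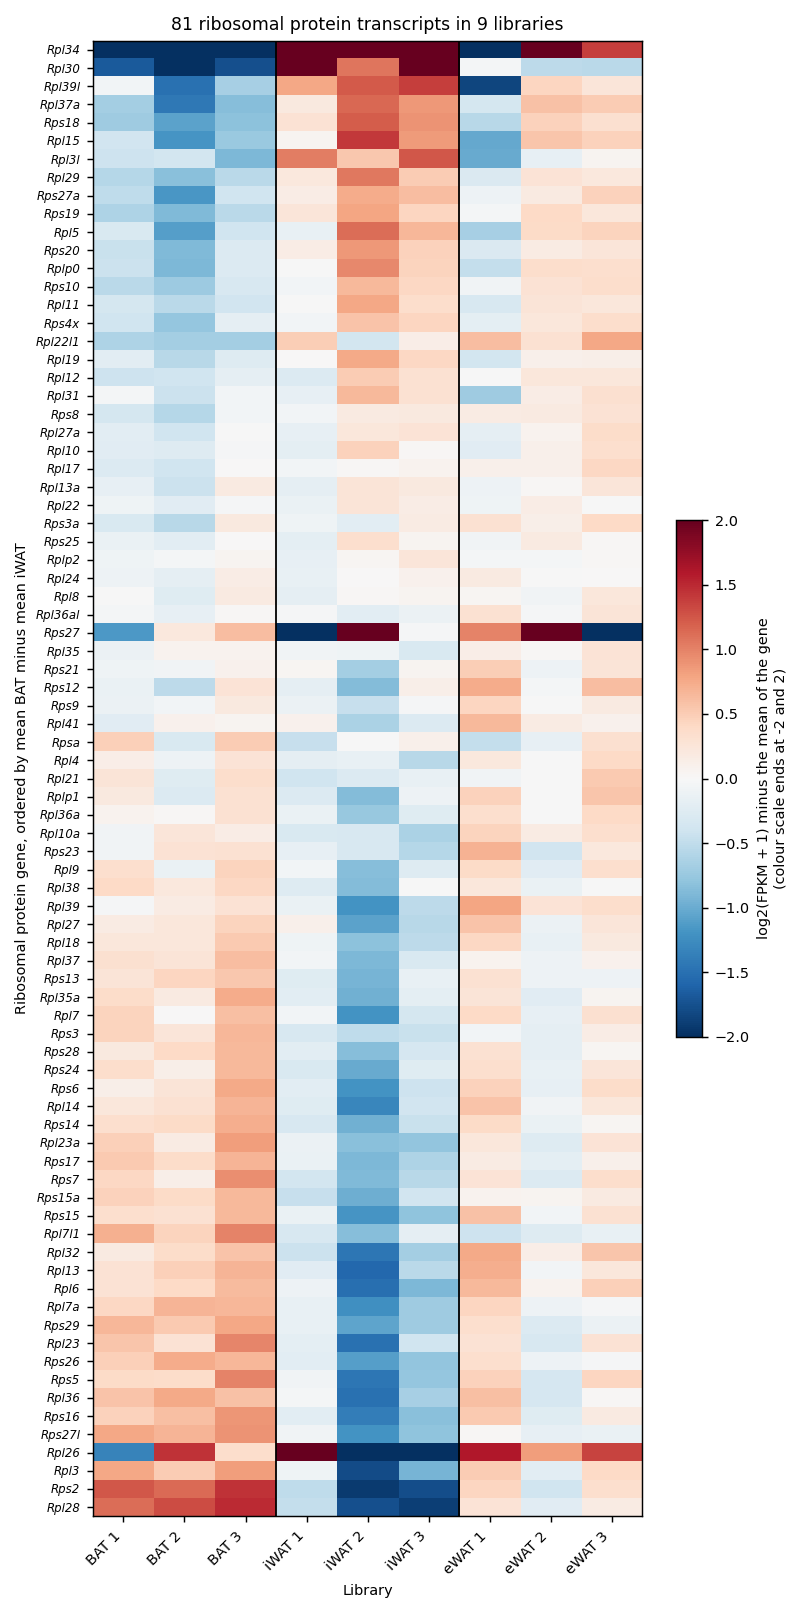
Each row is 1 of 81 of the 82 tested ribosomal protein genes, each column a library, and colour gives log2(FPKM + 1) minus the mean of the gene over the 9 libraries, with the scale ending at -2 and 2. Rows are ordered by BAT minus iWAT, from Rpl34 (-6.27) at the top to Rpl28 (2.67) at the bottom, and eWAT 1 resembles the BAT columns more than eWAT 2 and 3 do in many rows.

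Rps2 and Rpl28 had the largest differences in favour of BAT. Rps2, a protein at the mRNA entry of the 40S subunit (chr17:24855061-24858874, mm9), was at 669, 616 and 769 FPKM in BAT 1 to 3, 198, 74.1 and 81.5 in iWAT, and 378, 213 and 354 in eWAT. The lowest BAT library was above the highest of both white depots, at a log2 difference of 2.67 ± 0.37 to iWAT (limma, adjusted p = 0.000319). Rpl28, a 60S protein (chr7:4744476-4746164, mm9), was at 629, 722 and 817 in BAT, 210, 85.3 and 77.7 in iWAT, and 352, 249 and 324 in eWAT. Its difference to iWAT was 2.67 ± 0.35 (adjusted p = 0.000231), again without overlap. Both calls held under all 21 alternatives tried for this comparison, among them other filters, scalings and fits and the fits without each library.

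Rpl3, Rps27l and Rps16 were also among the largest differences. Rpl3, the 60S protein that reaches towards the peptidyl transferase centre, was at 266, 220 and 278 FPKM in BAT, 146, 44.4 and 81.2 in iWAT, and 221, 134 and 205.5 in eWAT. It was higher in BAT than in iWAT by 1.64 ± 0.39 (limma, adjusted p = 0.00527), and its eWAT values overlapped those of BAT. Rps16, whose protein has its tail near the decoding site, differed by 1.46 ± 0.32 (adjusted p = 0.00381). In each of these genes iWAT 1 was the highest iWAT library and eWAT 2 the lowest eWAT library.

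Rps6, the 40S protein phosphorylated by S6 kinases, was at 204, 225 and 317 FPKM in BAT, 162, 81.4 and 141 in iWAT, and 258, 167 and 242 in eWAT. Its call (0.98 ± 0.31, limma, adjusted p = 0.0208) was lost under both other scalings and without BAT 3 or iWAT 2. Rpl39, which lines the exit tunnel, was called at 0.76 ± 0.29 (adjusted p = 0.0441) and turned to -0.02 under quantile normalization.

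The genes lower in BAT included some of the most abundant. Rps18, at the head of the 40S subunit (chr17:34088944-34092946, mm9), was at 696, 541 and 643 FPKM in BAT, 1389, 2629 and 2123 in iWAT, and 778, 1565 and 1423 in eWAT. All BAT values lay below all others, at a log2 difference to iWAT of -1.67 ± 0.33 (limma, adjusted p = 0.00207). Rpl37a, a zinc-binding 60S protein, was at 991, 587 and 873 in BAT, 1801, 3522 and 2889 in iWAT, and 1234, 2379 and 2239 in eWAT. It too was lowest in BAT without overlap, by -1.72 ± 0.35 against iWAT (adjusted p = 0.0025). Rps19, mutated in Diamond-Blackfan anemia, was at 674, 562 and 714 in BAT, 1226, 1800 and 1399 in iWAT, and 1015, 1372 and 1219 in eWAT. BAT again stood below both other depots (-1.17 ± 0.23 against iWAT, adjusted p = 0.00238).

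Rpl5 and Rpl11, the proteins that with 5S RNA bind Mdm2, were both lower. Rpl5 was at 258, 149 and 241 FPKM in BAT, 289, 697 and 506 in iWAT, and 200, 418 and 437 in eWAT, a difference to iWAT of -1.15 ± 0.40 (limma, adjusted p = 0.0314). Rpl11 was at 1059, 930 and 1038 in BAT, 1349, 2333 and 1737 in iWAT, and 1091, 1631 and 1582 in eWAT (-0.81 ± 0.27, adjusted p = 0.0244). Neither call was stable: that of Rpl5 was lost without BAT 2, BAT 3, iWAT 2 or iWAT 3, and that of Rpl11 without any of these or BAT 1. Rpl15, a 60S protein, was at 357, 206 and 278 in BAT, 485, 1240 and 847 in iWAT, and 228, 683 and 644 in eWAT. Its eWAT 1 value lay inside the BAT range and the other eWAT values far above it. Its difference of -1.54 ± 0.46 between BAT and iWAT (adjusted p = 0.0165) lost its call without BAT 2 or iWAT 2.

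The stalk proteins recruit and activate the elongation factors. Rplp2 was the steadiest: 2774, 2889 and 3085 FPKM in BAT, 2640, 3023 and 3505 in iWAT, and 2882, 2866 and 3000 in eWAT. The 3 depots overlapped, and the BAT minus iWAT difference was -0.06 ± 0.21 (limma, adjusted p = 0.818). Rplp1 was at 1293, 932 and 1386 in BAT, 933, 621 and 1051 in iWAT, and 1558, 1127 and 1653 in eWAT, with no call in any comparison. Rplp0, which anchors both to the 60S subunit and is often used to normalize qPCR, was at 370, 264 and 410 in BAT, 492, 961 and 677 in iWAT, and 358, 633 and 625 in eWAT. It was called lower in BAT than in iWAT (-1.0 ± 0.33, adjusted p = 0.0237), a call lost without BAT 2, iWAT 2 or iWAT 3.

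Several other familiar genes had no call. Rpl13a, another reference gene of qPCR work, ranged over 1.61-fold, from 495 to 797 FPKM, and was called in no comparison. Rpsa, also known as a laminin receptor, ranged from 313 to 624, and Rpl41 from 1756 to 4248, neither with a call. Rpl10a (chosen after its values were seen) encodes the protein most often GFP-tagged for ribosome pull-down. It was at 474, 593 and 550 in BAT, 404, 400 and 321 in iWAT, and 679, 559 and 627 in eWAT. The iWAT values lay below all others, with no call against BAT (0.52 ± 0.21, limma, adjusted p = 0.0538) or eWAT (-0.73 ± 0.21, adjusted p = 0.0919). Over the 82 tested genes the highest library was a median 3.17 times the lowest, 18 genes stayed within 2-fold, and 7 exceeded 10-fold (Rpl3l, at 0 in 1 library, has no ratio). Among those 7 were Rps27, Rpl34, Rpl30 and Rpl26, whose ranges with their listed copies added were 6.67-, 4.01-, 4.34- and 2.99-fold.

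**Figure D3:**
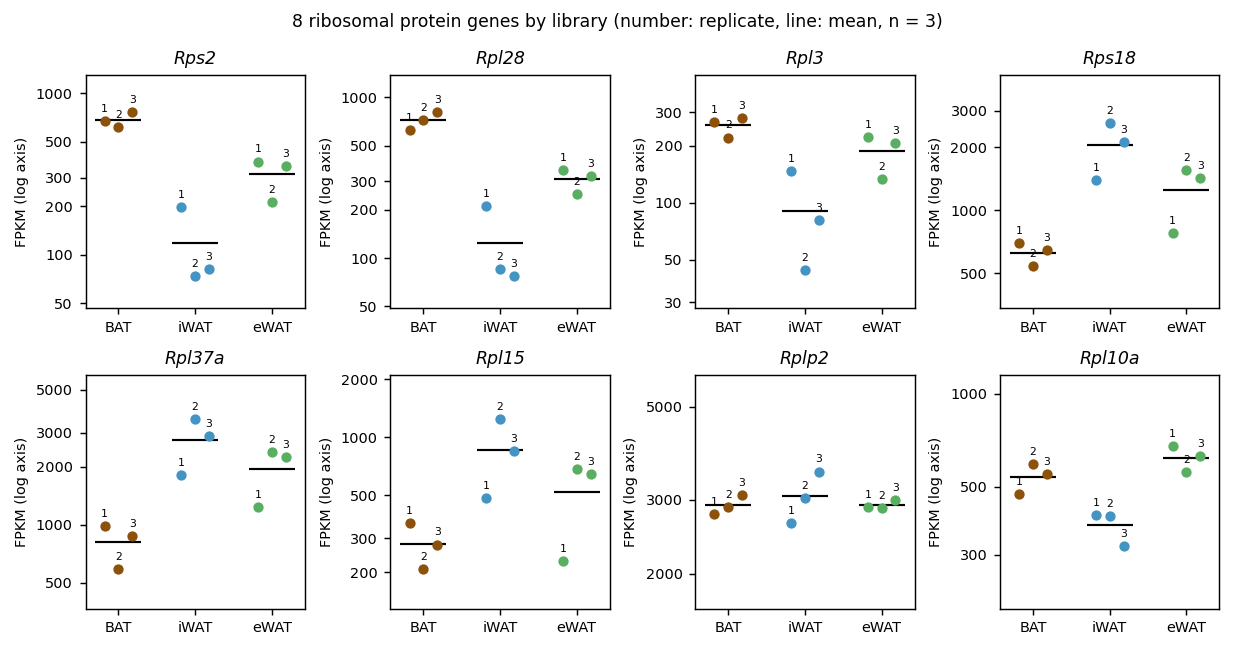
FPKM (log axis, scaled per panel) of 8 ribosomal protein genes in BAT, iWAT and eWAT, with a point per library numbered by replicate and a line at the mean (n = 3). Rps2, Rpl28 and Rpl3 run highest in BAT and lowest in iWAT, Rps18, Rpl37a and Rpl15 the other way, and Rplp2 stays between 2640 and 3505.

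The opposed genes give ratios that set BAT apart from both white depots, and these ratios, chosen after their values were seen, are a description. Rps18 over Rps2, both of the 40S subunit, was 1.04, 0.878 and 0.836 in BAT 1 to 3, 7.02, 35.5 and 26.0 in iWAT, and 2.06, 7.35 and 4.02 in eWAT. Rpl37a over Rpl28 in the large subunit was 1.57, 0.814 and 1.07 in BAT, 8.59, 41.3 and 37.2 in iWAT, and 3.5, 9.55 and 6.9 in eWAT. In both, BAT was lowest, iWAT 2 highest, and eWAT 1 the lowest of its depot. The white depots overlapped, with eWAT 2 above iWAT 1 in both ratios.

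As a group, the 35 genes called higher in BAT took 40.6% to 42.4% of the members' FPKM in BAT, 26.9%, 11.5% and 18.3% in iWAT 1 to 3, and 34.0%, 23.7% and 28.1% in eWAT 1 to 3. The 18 genes called lower took 14.3% to 18% in BAT, 32%, 44.9% and 40% in iWAT, and 18.2%, 30.7% and 28.0% in eWAT. The BAT and iWAT values follow from how the classes were made. The eWAT values played no part in the BAT minus iWAT difference, but they entered the shared spread behind the calls. With only BAT and iWAT fitted, 31 genes were called higher and 17 lower. These are 37.8% and 20.7% of the members, beside 34.8% and 23.0% of all genes.

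**Figure D4:**
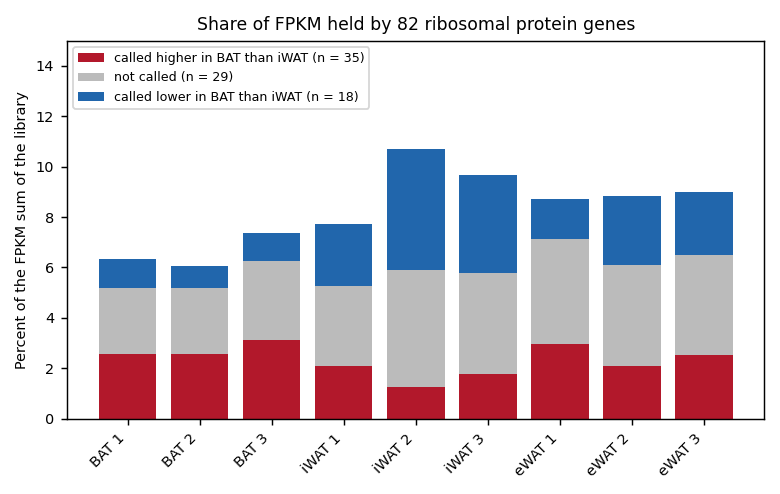
Stacked bars give the percent of each library's FPKM sum held by the tested ribosomal protein genes, divided into those called higher in BAT than iWAT (35), not called (29) and called lower (18). The lower class takes its largest share in iWAT 2, and eWAT 1 has less of it than eWAT 2 and 3.

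The same opposition appeared inside eWAT, between library 1 and libraries 2 and 3. Of the 35 genes called higher in BAT than iWAT, 28 were higher in eWAT 1 than in both eWAT 2 and 3, and 1 was lower. That is 80%, the same share as among the 70 mitochondrial ribosomal proteins called higher in BAT, while among all genes called higher in BAT 37.3% were higher in eWAT 1 and 31.6% lower. Of the 18 members called lower in BAT, 16 were lower in eWAT 1 than in both others, where the share over all genes called lower was 82.3%. Across the 82 genes, BAT minus iWAT and eWAT 1 minus the mean of eWAT 2 and 3, which have no library in common, had a Pearson correlation of 0.78 and a Spearman correlation of 0.72. Across all 10374 genes both were 0.52, and across 76 mitochondrial ribosomal proteins they were -0.02 and -0.08. With the listed copies added to their genes, the correlations over 83 members were 0.84 and 0.82. These are descriptions over genes that share libraries and not over independent samples.

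**Figure D5:**
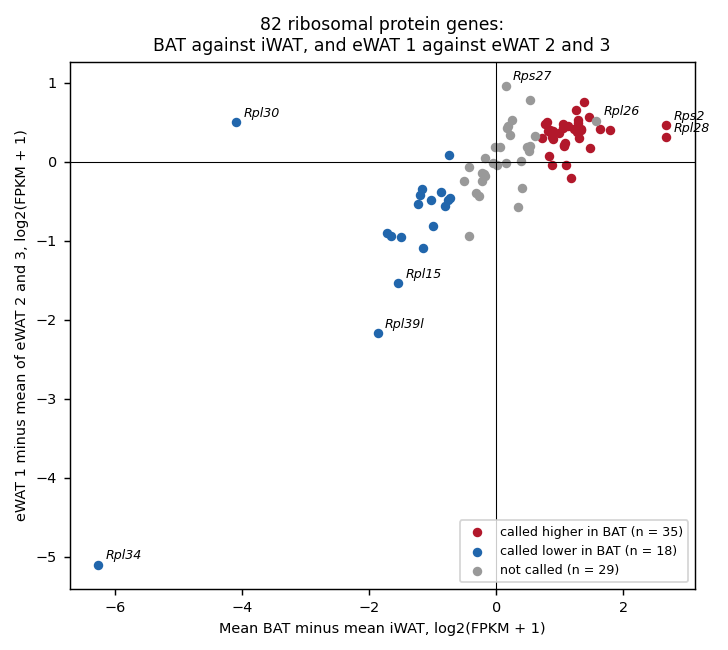
Each point is 1 of 82 ribosomal protein genes, with mean BAT minus mean iWAT on the horizontal axis and eWAT 1 minus the mean of eWAT 2 and 3 on the vertical axis, both as differences of log2(FPKM + 1). Genes called higher in BAT (red, 35) lie mostly above 0 and those called lower (blue, 18) mostly below, with Rpl34 and Rpl30, each with a near-identical copy listed in the table, apart from the rest.

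Depth and the marker sums of other cell types also differed between these libraries. eWAT 1 was the deep eWAT library (16.1 M reads against 4.46 and 4.57 M), and it had the lowest muscle and epithelial sums of its depot (228 and 83.8 FPKM). iWAT 1 had the lowest epithelial sum of iWAT and the highest depth there, with a muscle sum between those of iWAT 2 and 3, and stood nearest to BAT in both ratios. iWAT 3 was the shallowest library (2.91 M), while iWAT 2 (3.47 M) stood farthest from BAT. The stromal progenitor sum had another order within depots, highest in iWAT 1 (376 FPKM, against 104 and 234 in iWAT 2 and 3) and in eWAT 1 (89.96, against 52.1 and 70.8). The part of depth or of other cell types in the split of the ribosomal protein genes was not tested. Over 81 genes, the Spearman correlations of coding length, GC content, number of exons and number of genome copies with BAT minus iWAT lay between -0.02 and 0.15, and that of the mean level over 82 genes was -0.33.

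The start of the mRNA was compared because the TOP motif sets apart this class of genes. RefSeq windows around the transcription start (GRCm38.p6) were at hand for 63 of the 84 genes. A motif was counted where a C followed by at least 5 further C or T began within 10 bases of the start, on the strand of the gene. It was found in 34 of 63 members (54.0%), in 21.9% of 27025 symbols in all, and in 23.2% of 69 mitochondrial ribosomal proteins. On the other strand it was found in 7.9% of members and 25.2% of all symbols. The classes did not separate: the motif was there in 56.0% of the 25 members called higher in BAT with a window and in 57.1% of the 14 called lower. The windows of 5 genes named above are shown, 15 bases before the start site and 15 from it on, with the motif in capitals. Rps2 (chr17:24720048-24720077, plus strand) and Rpl28 (chr7:4792950-4792979, plus) were higher in BAT. Rps18 (chr17:33955651-33955680, minus) and Rpl15 (chr14:18270972-18271001, minus) were lower, and Rplp2 (chr7:141447636-141447665, plus) was steady.
Rps2: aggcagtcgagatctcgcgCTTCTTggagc
Rpl28: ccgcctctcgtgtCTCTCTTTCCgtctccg
Rps18: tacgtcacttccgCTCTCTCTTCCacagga
Rpl15: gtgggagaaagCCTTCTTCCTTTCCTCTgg
Rplp2: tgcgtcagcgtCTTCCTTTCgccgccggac

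Against eWAT, BAT differed in few ribosomal protein genes. Of 82 genes, 4 were called higher in BAT and 8 lower (limma), 4.88% and 9.76%, where the background was 20.2% and 13.5%. The median difference was -0.10, against -0.02 over all genes. BAT values lay above all eWAT values in 12 genes (background 32.0%) and below them in 12 (background 22.7%). The 4 higher were Rpl28, Rps2, Rpl7l1 and Rps27l. The 8 lower were Rpl34, Rpl30, Rpl37a, Rpl22l1, Rps18, Rps27a, Rps19 and Rps10 (Rps10 chosen after its values were seen). Summed with Gm12191, Rpl30 was not called (-0.77 ± 0.34, limma, adjusted p = 0.101), and eWAT 1 lay within the BAT range. Rps27a, which is made fused to ubiquitin, was at 584, 370 and 629 FPKM in BAT and 776, 944 and 1148 in eWAT (-0.88 ± 0.28, adjusted p = 0.0348). These counts were fragile. Without BAT 3 limma called no gene higher and 2 lower (16 of 82 at an unadjusted p under 0.05). Without BAT 2, 1 was called in each direction, and without eWAT 2 or eWAT 3, 1 higher and 2 lower. Calls over all genes fell too: without BAT 2, BAT 3, eWAT 2 or eWAT 3, 13.3% to 16.7% were higher and 7.74% to 8.36% lower. Without iWAT 1, which enters the shared estimate of spread, 9 members were higher and 11 lower, beside 25.1% and 18% of all genes. With the deep libraries alone (BAT 1 to 3 against eWAT 1), eWAT 1 is a lone sample assumed to vary as the BAT libraries do. The median difference was then -0.06 over 81 members and 0.24 over all genes. Quantile normalization gave 1 higher and 33 lower, 1.22% and 40.2% of the members, beside 19.5% and 14.9% of all genes.

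Between the white depots only Rpl30 was called, higher in iWAT (1 of 82, background 0.231%), and no gene was called lower (background 1.5%). The unadjusted p was under 0.05 for 36 of the 82, and the median difference was -0.48, against -0.18 over all genes. With the replicate number as a block, 2 genes were called lower in iWAT, 2.44% of the members, beside 1.86% of all genes. Leaving out iWAT 1 gave 4 higher and 31 lower, 4.88% and 37.8% of the members, and 4.44% and 27.8% of all genes were then called in those directions. In 27 genes all iWAT values lay below all eWAT values (background 19.5%), and in 3 above (background 3.1%).

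The 7 paralogs were 54.0% to 87.9% identical to their parent genes in coding sequence. The coding sequences of Rpl39l and Rpl39 are shown because this short pair (156 bases each, 85.3% identical) had a wide shift between depots. Rpl39l lies on chr16:10170319-10175004 and Rpl39 on chrX:34622515-34625397 (mm9). Capitals mark the bases that differ.
Rpl39l: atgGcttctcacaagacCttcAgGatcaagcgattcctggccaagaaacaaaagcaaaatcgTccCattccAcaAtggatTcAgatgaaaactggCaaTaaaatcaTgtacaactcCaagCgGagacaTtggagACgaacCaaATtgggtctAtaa
Rpl39: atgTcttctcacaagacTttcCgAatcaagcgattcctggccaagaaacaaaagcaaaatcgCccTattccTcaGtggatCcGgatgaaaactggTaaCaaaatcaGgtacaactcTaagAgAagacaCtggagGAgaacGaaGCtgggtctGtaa

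Rpl39l was at 16.1, 5.36 and 10.3 FPKM in BAT, 29.4, 40.9 and 45.7 in iWAT, and 3.98, 22.9 and 20.0 in eWAT, while Rpl39 was at 491, 563 and 612, at 456, 219 and 348, and at 869, 607 and 640. The log2 ratio of paralog to parent was -5.69 ± 0.81 in BAT, -3.07 ± 0.77 in iWAT and -5.68 ± 1.54 in eWAT (SD, n = 3). Every iWAT library lay above every other, but with 3 against 3 the exact two-sided permutation test cannot go below p = 0.1, and over the 21 ratio comparisons made the smallest adjusted p was 0.262. In eWAT 1 the ratio was -7.45, below all BAT libraries.

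Rpl3l, the muscle paralog of Rpl3 (73.3% identical in coding sequence), was at 0.511, 0.564 and 0.074 FPKM in BAT, 3.07, 1.93 and 3.76 in iWAT, and 0, 0.789 and 1.08 in eWAT 1 to 3. It was higher in iWAT than in BAT (log2 difference of BAT minus iWAT -1.5 ± 0.31, limma, adjusted p = 0.0027). The skeletal muscle markers had the same order of depots, from 61.1 to 151 FPKM in BAT to 1843 to 2532 in iWAT, with eWAT 1 lowest in eWAT, and their part in this value was not tested. Relative to Rpl3 its log2 ratio was -7.54 ± 0.44 in BAT, -4.41 ± 0.67 in iWAT and -6.89 ± 0.81 in eWAT, with no overlap between iWAT and either other depot (exact permutation p = 0.1, adjusted 0.262).

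Rpl22l1, the paralog of Rpl22, was at 67.0, 63.9 and 64.0 FPKM in BAT, 145, 79.4 and 113 in iWAT, and 159, 128 and 177 in eWAT. It was lower in BAT than in eWAT by -1.23 ± 0.25 (limma, adjusted p = 0.00414), the 1 BAT against eWAT call that held under all 22 alternatives among those named here. Rpl22 itself stayed between 113 and 158 FPKM. The Rpl22l1 to Rpl22 log2 ratio was -0.90 ± 0.10 in BAT and 0.20 ± 0.34 in eWAT, without overlap.

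Rpl7l1, which acts in 60S assembly and is related to Rpl7 (54.0% identical), was at 25.6, 21.1 and 31.2 FPKM in BAT, 12.0, 7.95 and 13.3 in iWAT, and 11.2, 12.54 and 13.6 in eWAT. It was higher in BAT than in iWAT (1.17 ± 0.25, limma, adjusted p = 0.00311) and than in eWAT (0.99 ± 0.25, adjusted p = 0.0115), the latter lost without BAT 3. Rps27l, a p53 target gene, was at 588, 552 and 647 in BAT, 329, 149 and 197 in iWAT, and 349, 306 and 316 in eWAT. Its BAT minus iWAT difference was 1.48 ± 0.28 (adjusted p = 0.00179). The ratio of Rps27l to Rps27 is not read, since Rps27 cannot be told from Gm9846. Rpl36al and Rpl36a, 87.9% identical, had log2 ratios of 0.61 ± 0.09 in BAT, 1.07 ± 0.24 in iWAT and 0.73 ± 0.07 in eWAT, so the paralog was listed higher in every library. Rpl36a has 12 further genome copies, the closest 100% identical, and Rpl36al has 2. How much FPKM such copies hold is not known, so the order of the pair holds for the listed lines only.

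Among other genes of translation, the counts against iWAT stand beside the background of 34.5% higher and 22.9% lower. Of 76 mitochondrial ribosomal proteins, which build the ribosome inside mitochondria, 70 were higher in BAT than in iWAT, 92.1%, with a median log2 difference of 1.62 and a lowest of 0.35, and 48 were higher than in eWAT (63.2%, background 20.2%). Of 11 elongation factor genes, 2 were higher in BAT than iWAT and 4 lower (18.2% and 36.4%), with Eef1a1, which brings tRNA to the ribosome, at 2659 ± 685 FPKM in BAT and 9555 ± 4204 in iWAT (SD, n = 3; log2 difference -1.78). Eef2, the translocase, went the other way by 0.99. Of 37 initiation factor genes, 7 were higher and 12 lower (18.9% and 32.4%), among them Pabpc1, the poly(A)-binding protein, at -2.37. Among 7 genes of fused or ribosome-bound partner proteins 2 were higher and 2 lower (28.6% each), with Gnb2l1, the 40S scaffold RACK1, at -1.0. Of 61 ribosome assembly genes 22 were higher and 8 lower (36.1% and 13.1%), such as Nhp2 at 2.06 and Npm1 at -1.76, and of 20 genes of the mTORC1 and TOP list 7 and 5 (35% and 25%, near the background), such as Eif4ebp1 at 1.75.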

How the data were processed

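FPKM values were deposited by the authors as 1 table of 22996 lines for 9 libraries, made with TopHat and Cufflinks on mm9 per the submitters' processing notes. Versions, annotation, strand setting and handling of reads that map more than once are not given in the sources used here. The table names no unit, and FPKM is read from the use of Cufflinks and from fractional values with unequal sums. Symbols on several lines were represented by their highest line.

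The members and the gene lists were chosen with earlier results of these data known. All 9 libraries entered 1 fit of log2(FPKM + 1) in limma 3.58.1 (R 4.3.3, intensity trend, 6 residual degrees of freedom) and the depots were compared pairwise. The filter asked for 1 FPKM or more in 3 libraries or more and left 10374 genes, over which Benjamini-Hochberg adjustment ran, with calls at an adjusted p under 0.05. The fit was tested on simulated data with independent noise in each library. That test cannot show how the fit handles deviations that libraries share. Deviations of iWAT and eWAT libraries with the same number correlated at 0.634, 0.534 and 0.165, all over the 0.1 set as the rule. Some with different numbers passed it too, iWAT 2 with eWAT 3 (0.228) and iWAT 3 with eWAT 2 (0.105), and the rest were negative. For BAT and iWAT the values with the same number were -0.324, -0.225 and 0.121, and for BAT and eWAT -0.388, -0.202 and 0.103. Some BAT values with different numbers were over 0.1, up to 0.374 for BAT 2 with eWAT 1. The rule therefore cannot decide whether the numbers pair libraries. The labels themselves state no pairing.

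Depth was estimated from single-transcript genes of at least 1000 bases, whose low values fall on steps of 1 to 3 reads. Of those values, 44.3% to 63.4% per library were whole reads to a tolerance of 0.15, so these are estimates. The lowest share, 44.3%, was that of eWAT 1. Some values lie within the tolerance at any depth, and that share is not given here. Gene models are GENCODE vM1 on the mm9 assembly (83 of 84 members, Rpl41 unmatched). Copies were found by mapping coding sequences to that genome with minimap2 2.31-r1302 (at least 90% identity over at least 80% of the length). Genes named were the 6 largest called differences each way per comparison whose depots did not overlap, the 4 highest and lowest means, members listed at 0, paralog pairs, a chosen set of well-known members, and up to 4 called genes per other list. Other settings tried were no filter, a pseudocount of 0.1, a mean of at least 5 FPKM, summed lines, median-ratio and quantile scaling, array weights, the replicate block, no trend, a 2-fold minimum, each pair of depots alone, libraries of like depth, and each library left out. Adding the listed copies to their genes was chosen after seeing the data. The values of some genes are not reported here, though they are part of the counts.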

Additional observations from a re-analysis of the deposited data

How the results depend on the processing

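Between BAT and iWAT, the 35 genes higher in BAT became 9 under quantile normalization and 23 with a 2-fold minimum. With a library left out they became 22 to 39. The 18 lower became 34 under quantile normalization and 9 to 20 with a library left out. Over all genes, 28.3% were called higher and 27.5% lower under quantile normalization, and 25.3% higher with the 2-fold minimum. With a library left out, 26.8% to 40.8% of all genes were called higher and 15.6% to 25.7% lower. Against eWAT, the 4 higher in BAT became 1 with no filter, 1 under quantile normalization, 19 with array weights, 2 with a 2-fold minimum, 9 with only these depots fitted and 0 to 9 with a library left out. The 8 lower became 2 with no filter, 33 under quantile normalization, 20 with array weights, 4 with a 2-fold minimum and 1 to 11 with a library left out. With a library left out, 13.2% to 25.1% of all genes were called higher in BAT than in eWAT and 7.74% to 21.6% lower. In the other settings given for these counts, 9.87% to 29.9% of all genes were called higher and 5.84% to 34% lower. Between iWAT and eWAT, the 1 higher became 0 with no filter, with only these depots, with the shallow libraries alone and with copies added, 2 under median-ratio, quantile and array weights, and 0 to 4 with a library left out. The count of 0 lower became 15 with array weights, 2 with the replicate block and 0 to 31 with a library left out. The 15 were 18.3% of the members, beside 18.2% of all genes, and the 2 were 2.44%, beside 1.86%. With a library left out, 0.108% to 4.44% of all genes were called higher and 0.0393% to 27.8% lower. In the other settings given for the higher count, 0.0943% to 0.762% of all genes were called higher. The block moved no other count of members by over 1.5 times. Rpl39, BAT minus iWAT, turned to -0.02 under quantile normalization. The summed level of members per library, mean FPKM in eWAT, became 46214 under median-ratio scaling. The cause of these shifts was not tested. Estimated depth was lowest in the iWAT libraries and in eWAT 2 and 3, and its part in these shifts was not tested.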
